A study of Rattus norvegicus with 5 samples.

Results

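The small intestine of rats held at 20% calorie restriction (CR) for 1 month was compared with that of control rats, as the log2 ratio of 2 microarray signals over every gene probe set that was bright enough on both arrays. A probe set, a group of short probes read as 1 value, entered the comparison when its deposited signal was at least 50 on both the 20% CR and the control array. This held for 7247 of the 15866 probe sets that are not array controls (45.7%), and 6329 of them carry a single gene name, for 5741 of the 10411 genes named on the array. A further 778 reached 50 on only 1 of the arrays, 305 on the 20% CR array and 473 on the control array, and 7841 on neither.

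All animals were male Wistar rats, 6 weeks old at the start, which were fed a powdered AIN-93G diet in individual cages and dissected after a 16 h fast. The control rats received the full daily intake recorded beforehand, and the 20% CR rats received 20% less of the same food. Other groups received 5, 10 or 30% less. RNA of 5 rats was pooled for each group and 1 Affymetrix rat 230A array was run on each pool, so no group has a replicate and rats cannot be told apart within a pool. No test was therefore possible, no p-value is given, and differences are described by their size alone.

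The epithelium of the small intestine is renewed from stem cells in the crypts, and its enterocytes mature as they move up the villus. Mature enterocytes carry a brush border of microvilli, where membrane-bound peptidases and disaccharidases finish digestion and transporters take up amino acids, peptides and sugars. Inside the cell, absorbed fat is rebuilt into triglyceride and packed with apolipoproteins into chylomicrons. Beneath the epithelium lie a matrix of collagens made by fibroblasts and layers of smooth muscle.

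The 20% CR array stood apart from the others in several ways. Signal at the 3' end over that at the 5' end of beta-actin, which shows how intact the RNA was, came to 3.18 on it and between 2.20 and 2.41 on the other 4 arrays, while that of *Gapdh* was 1.27, within the range of 1.21 to 1.40 of the others. Its 18 spike-in probe sets lay 0.43 (log2) above those of the control array, where the other levels lay between −0.29 and 0.11. Bright genes also read higher on it: the median log2 ratio to the control was −0.04 for mean signals of 50 to 100, 0.06 for 800 to 1600 and 0.18 for 1600 and above, and 84.4% of the 333 probe sets in the last class were positive. The part of these features in the differences below was not tested. Values after the trend with signal was subtracted by a lowess curve are called centred, and this step was chosen after the trend had been seen.

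Most genes differed little. The log2 ratio of the 20% CR array to the control array had a median of −0.02 and an SD of 0.29 over the 7247 probe sets, and 92.5% lay within 0.5 of 0. At a log2 ratio of at least 1, 23 probe sets were higher (0.317% of those kept) and 18 were lower (0.248%). At 0.5 or more, 217 were higher (2.99%) and 330 lower (4.55%). The split depended on the scaling: higher probe sets made up 56.1% of those at 1 or more with the signals as deposited, 70.6% after quantile normalization, 73.7% after median centring and 73.0% after centring on signal. At 0.5 or more the shares were 39.7%, 53.6%, 55.2% and 51.9%. The only repeat measure within the arrays was a second probe set of the same gene. In 523 genes with at least 2 kept probe sets, the log2 ratios of the brightest 2 differed by a median of 0.22 and had the same sign in 60.0%. Where the brightest was at least 0.5 from 0, 28 of 36 genes had the same sign.

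**Figure D1:**
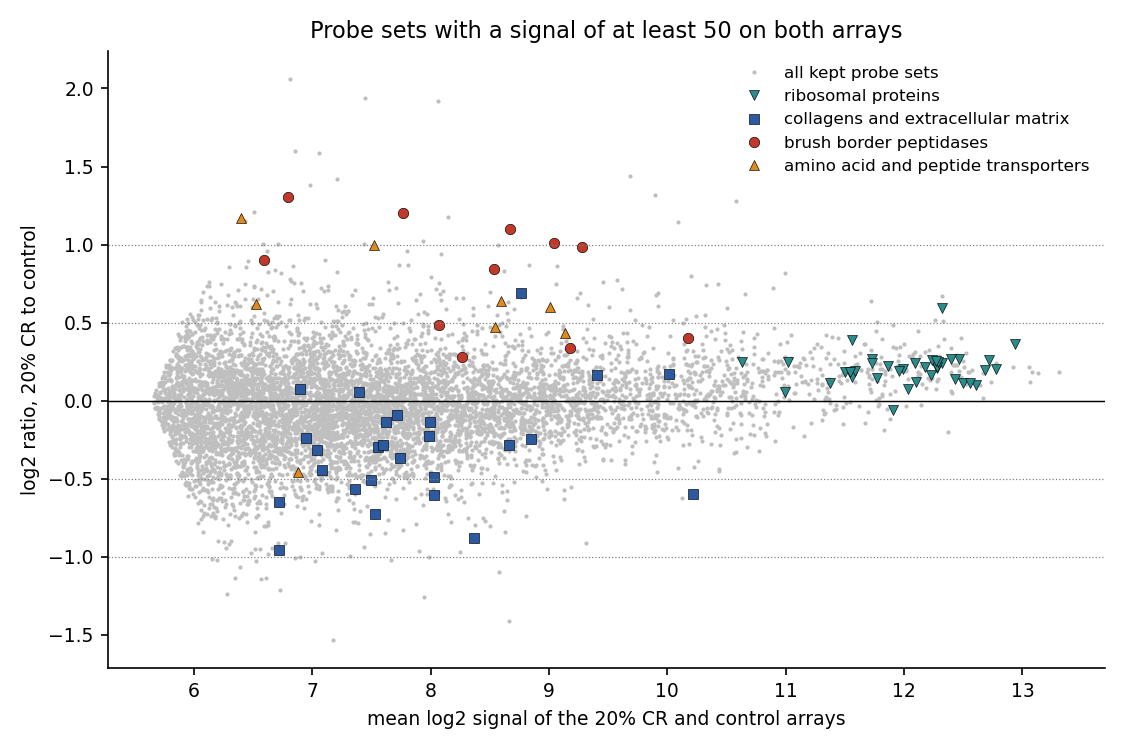
Log2 signal ratio of the 20% CR array to the control array (vertical axis) against the mean log2 signal of both arrays (horizontal axis) for the 7247 kept probe sets, grey; each point is 1 probe set, and the dotted lines mark 0.5 and 1. Brush border peptidases (red) all lay above 0, most collagens and matrix genes (blue) below it, and ribosomal proteins (teal), with high signals, near 0.21, where other bright genes also lay.

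The peptidases of the enterocyte brush border were higher at 20% CR than in the control in all members bright enough to be kept. Of 12 on the array, 11 were kept and all 11 had a positive log2 ratio, with a median of 0.90 (0.96 centred) against −0.02 over all kept probe sets. Of the 11, 7 were higher by at least 0.5, which 2.99% of all kept probe sets were. On all 11 the 20% CR array was also the highest of the 5 arrays, as it was for 22.4% of all kept probe sets. Members of this and the other lists were chosen with earlier results of these data known, so such shares describe a list and test nothing. *Folh1*, a folate and glutamate hydrolase, was not kept, with signals of 11.1 on the control and 3.0 on the 20% CR array.

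*Ace*, which removes dipeptides from the end of peptides, had a signal of 277.8 on the control array, 344.4, 298.7 and 331.0 at 5, 10 and 30% CR, and 594.6 at 20% CR. That is 2.14-fold the control signal (log2 ratio 1.10), and the 4 other arrays lay close together. A second *Ace* probe set had the highest log2 ratio of all kept probe sets, 2.06, with signals of 55.1, 107.6, 168.1, 230.1 and 117.8 on the control, 5, 10, 20 and 30% CR arrays. *Enpep*, which removes acidic residues from the amino end, had 371.1, 629.5, 393.2, 748.4 and 548.5 (log2 ratio 1.01 at 20% CR), so that the 5 and 30% CR arrays lay between the control and the 20% CR array. *Naaladl1*, a dipeptidase of the ileal brush border, had 70.9 on the control and 174.9 at 20% CR (1.30), and the other levels lay between 89.5 and 130.6.

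*Dpep1*, which splits dipeptides, had 143.8 on the control, 228.9 at 5%, 218.7 at 10%, 331.5 at 20% and 282.0 at 30% CR (log2 ratio 1.20 at 20% CR), so all 4 restricted pools lay above the control. *Mme* (neprilysin), which cuts small peptides within the chain, had 440.5, 686.9, 528.4, 871.7 and 487.7 in the same order (0.98). *Mep1b*, the beta subunit of the metalloprotease meprin, had 277.5, 357.4, 326.1, 498.1 and 304.3 (0.84). Its partner *Mep1a* differed less, with 278.3 on the control and 338.6 at 20% CR (0.28), and was the member with the smallest ratio. *Ggt1*, which splits glutathione, had 70.7 and 131.9 (0.90), *Xpnpep2*, which acts next to proline, 227.9 and 318.5 (0.48), *Anpep*, the abundant aminopeptidase N, 1005.2 and 1329.3 (0.40), and *Dpp4* 514.7 and 650.1 (0.34, and 0.35 at a second probe set). For *Xpnpep2* and *Anpep* the 5, 10 and 30% CR arrays lay at or below the control, between 198.4 and 227.8 and between 755.3 and 821.4, so the higher signal was found at 20% CR alone. As a group the 11 genes had medians of 0.34, 0.10 and 0.13 at 5, 10 and 30% CR, ratios that share the control array with the 20% CR ratio.

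**Figure D2:**
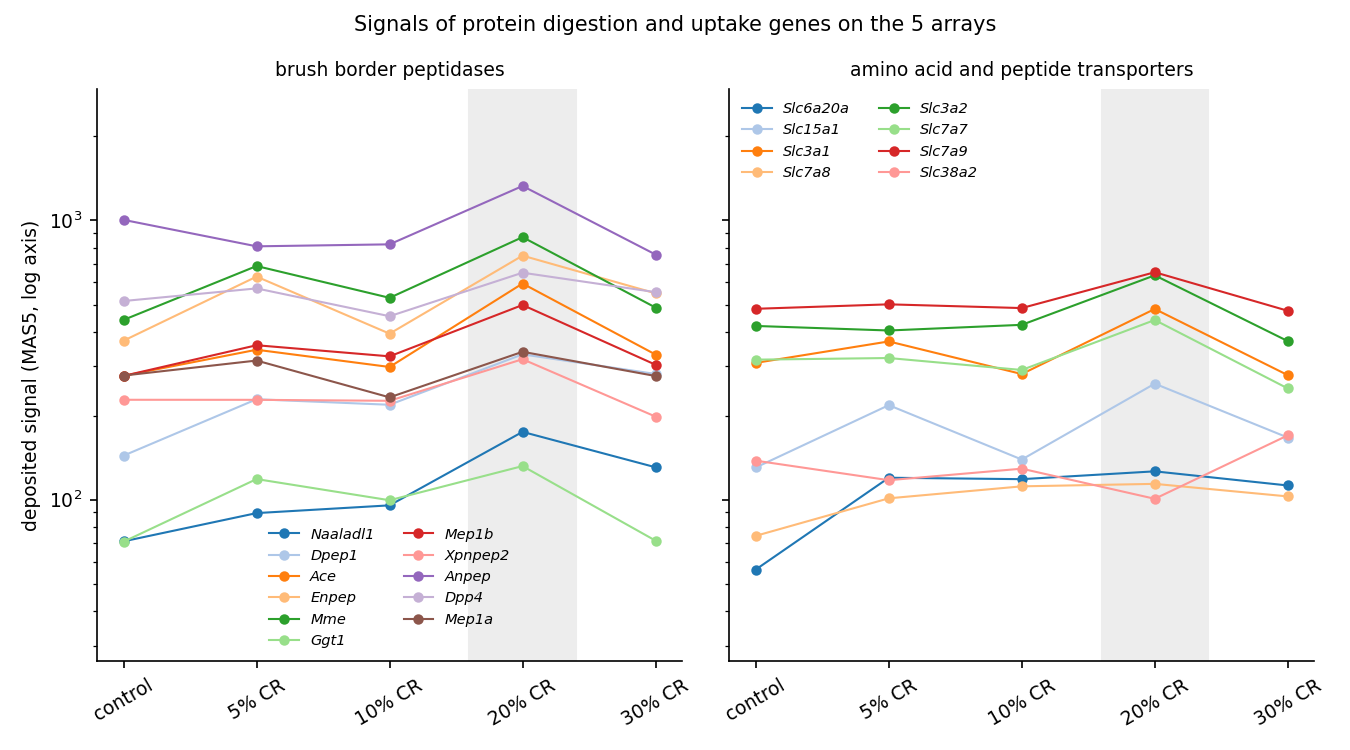
Deposited signal (log axis) of the 11 kept brush border peptidases (left) and the 8 kept amino acid and peptide transporters (right) on the 5 arrays, 1 line a gene and 1 point an array of 5 pooled rats, with the 20% CR array shaded. All 11 peptidases and all transporters but *Slc38a2* peak on the 20% CR array.

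Promoters of *Ace*, *Enpep* and *Mep1a* are printed below because these peptidases include high and low ratios of the list and hold words read by factors known in enterocytes or the clock. They are RefSeq sequences of the rat build GRCr8, the 250 bases before the gene's start, written 5′ to 3′ on the gene's strand. Capitals mark CAAAGT, a core read by HNF4 (as ACTTTG on the other strand in *Ace*), TTTATG, a core read by CDX2, in *Mep1a*, and the D-box word TTATGTAA on the other strand in *Enpep*.
Ace promoter, chr10:91409879-91410128, plus strand: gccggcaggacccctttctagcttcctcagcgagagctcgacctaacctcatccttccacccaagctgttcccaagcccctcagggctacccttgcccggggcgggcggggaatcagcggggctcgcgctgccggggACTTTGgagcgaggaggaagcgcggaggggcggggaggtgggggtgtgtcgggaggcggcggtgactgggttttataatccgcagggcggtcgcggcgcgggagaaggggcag
Enpep promoter, chr2:220526219-220526468, minus strand: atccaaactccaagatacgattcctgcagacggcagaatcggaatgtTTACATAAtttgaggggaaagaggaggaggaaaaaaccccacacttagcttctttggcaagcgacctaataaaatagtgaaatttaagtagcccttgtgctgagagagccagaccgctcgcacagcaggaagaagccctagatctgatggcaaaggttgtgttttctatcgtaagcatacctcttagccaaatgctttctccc
Mep1a promoter, chr9:24971651-24971900, plus strand: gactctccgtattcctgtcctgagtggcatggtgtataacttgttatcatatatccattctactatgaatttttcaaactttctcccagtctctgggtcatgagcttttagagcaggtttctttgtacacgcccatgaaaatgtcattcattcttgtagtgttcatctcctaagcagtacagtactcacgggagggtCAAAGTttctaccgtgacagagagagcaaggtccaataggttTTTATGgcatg
Promoters of 300 bases (250 before and 50 after the start) were found for 10 of the 11 peptidases, *Naaladl1* being the one named only. Of the 10, 3 held CAAAGT (*Ace*, *Mep1a* and *Mep1b*), as 14.8% of all 33469 promoters of the table did, and 3 held AGGTCA, read by Rev-erb and ROR proteins (*Anpep*, *Dpep1* and *Mme*), as 16.18% of all did. TTTATG was in 1 of 10 (12.68% of all), a longer HNF1 motif in 0 (0.33%) and the D-box TTATGTAA or TTACGTAA in 1 (1.01%), all searched on both strands. CACGTG (6.42% of all), GAANNTTC (8.59%) and TGACGTCA (1.83%) were in 0 of the 10. The matches describe these windows and are not shown to be sites. The words for HNF1, HNF4 and CDX2 were chosen after the ratios of the list had been seen.

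Transporters that carry amino acids and peptides into and out of the enterocyte were mostly higher too. Of 15 on the array 8 were kept, 7 with a positive and 1 with a negative log2 ratio, and the median was 0.61 (0.64 centred; 0.15, 0.01 and 0.14 at 5, 10 and 30% CR). Of the 8, 5 were higher by at least 0.5, against 2.99% of all kept probe sets, and 7 were highest of the 5 arrays at 20% CR, against 22.4%. *Slc15a1* (PepT1), the apical carrier of di- and tripeptides, had signals of 130.4 on the control, 218.0, 139.2 and 166.9 at 5, 10 and 30% CR, and 260.3 at 20% CR (1.00). *Slc6a20a*, which takes up proline, had 56.2 on the control and 126.3 at 20% CR (1.17), but 112.4 to 119.8 at the other levels, so the control array lay apart here and not the 20% CR array. Its second probe set had a log2 ratio of 0.90.

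Both subunits of 2 amino acid exchangers were kept. *Slc3a1* and *Slc7a9* form the apical carrier of cystine and basic amino acids, and their signals went from 309.0 and 482.7 on the control to 482.0 and 652.6 at 20% CR (0.64 and 0.44). *Slc3a2* and *Slc7a7* form the basolateral exit for basic amino acids and had 419.0 and 317.3 on the control against 636.2 and 440.1 at 20% CR (0.60 and 0.47). *Slc7a8*, another partner of *Slc3a2*, had 74.2 and 113.9 (0.62). For *Slc3a1*, *Slc7a9*, *Slc3a2* and *Slc7a7* the log2 ratios at 5, 10 and 30% CR lay between −0.34 (*Slc7a7* at 30%) and 0.26 (*Slc3a1* at 5%). *Slc38a2*, which takes up neutral amino acids and is known to respond to amino acid shortage, was the exception, with 137.9 on the control and 100.7 at 20% CR (−0.45), the lowest of the 5 arrays. The 7 members not kept included *Slc16a10*, an exit for aromatic amino acids, with 7.4 on the control and 48.7 at 20% CR. Others of them were lower, as *Slc1a1*, a glutamate carrier, with 58.7 and 37.2, *Slc1a5* with 70.4 and 48.8, and *Slc7a5* with 28.6 and 9.4. With members at any signal, floored at 10, the list median was 0.44.

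Genes of fat absorption and chylomicron assembly were higher in 14 of 17 kept members (18 on the array), with a median log2 ratio of 0.37 (0.34 centred; 0.09, −0.08 and −0.14 at 5, 10 and 30% CR). Of the 17, 5 were higher by at least 0.5 (2.99% of all kept probe sets) and none was lower by as much (4.55% of all). Positive ratios were found in 46.1% of all kept probe sets. The 20% CR array was highest of the 5 for 11 of the 17 (22.4% of all). Bright lists were often highest on it, as 28 of 38 ribosomal proteins and 39 of 62 respiratory chain and ATP synthase genes were. The fatty acid-binding protein *Fabp2* had the highest ratio, with 983.8 on the control, 1918.3, 1805.8 and 1969.2 at 5, 10 and 30% CR and 2382.9 at 20% CR (1.28), and its relative *Fabp1* had 4064.7, 5205.2, 5369.0, 6468.2 and 5401.3 (0.67). The control was thus the lowest array for both.

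Apolipoproteins of the chylomicron showed another pattern. *Apoc3* had 995.5 on the control, 936.4, 797.2 and 927.0 at 5, 10 and 30% CR and 1660.5 at 20% CR (0.74), and *Apoa1* had 2696.8, 2507.2, 2476.2, 4207.8 and 2375.9 (0.64). The other restricted pools lay below the control for both, so the 20% CR array alone was high. *Apoa4* had 733.4, 1200.1, 986.9, 1623.1 and 773.6 (1.15), and *Apob*, the structural protein of the particle, 698.4, 680.0, 482.2, 941.8 and 598.3 (0.43). Of the enzymes that rebuild triglyceride, *Dgat1* had 1623.4 on the control and 2241.6 at 20% CR (0.47), *Agpat2* 373.0 and 502.6 (0.43) and *Dgat2* 360.8 and 424.7 (0.24). *Cd36*, a fatty acid transporter, had 113.4 and 130.3 (0.20), below its signals at 5, 10 and 30% CR (194.4, 161.7 and 201.0). The study lists another *Cd36* probe set, which it reports as up-regulated in the intestine at 5, 10, 20 and 30% CR. *Slc27a4*, another fatty acid transporter, had 849.6 and 784.2 (−0.12).

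Sugar digestion and uptake did not differ as a group, with 5 of 8 kept members positive and a median of 0.12 (0.05 centred). *Slc5a1* (SGLT1), the apical carrier of glucose, had 157.0 on the control, 280.2, 181.2 and 172.1 at 5, 10 and 30% CR, and 287.2 at 20% CR (0.87), about as high as at 5% CR. *Si* (sucrase-isomaltase) had 2335.4 and 3096.2 (0.41), where the median of probe sets with mean signals of 1600 and above was 0.18. The basolateral glucose carrier *Slc2a2* had 776.9 and 836.5 (0.11) and the fructose carrier *Slc2a5* 189.5 and 168.1 (−0.17). The alkaline phosphatases of the brush border split, with *Alpi* at 1200.6 and 1369.9 (0.19) and *Akp3* at 587.8 and 412.2 (−0.51).

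Markers of mature enterocytes had a median log2 ratio of 0.41 over 14 kept of 15 genes on the array (0.35 centred). Of the 14, 12 were positive, against 46.1% of all kept probe sets and 84.4% of those with mean signals of 1600 and above, where several of these markers lie. The 20% CR array was the highest of the 5 for 12, against 22.4% of all and 28 of the 38 kept ribosomal proteins, which are also bright. The list shares *Fabp1*, *Fabp2*, *Apoa1*, *Apoa4*, *Anpep*, *Si*, *Slc5a1* and *Alpi* with the groups above. Of those it does not share, *Krt20*, a keratin of differentiated cells at the villus, had 1273.4 on the control and 2049.0 at 20% CR (0.69), and *Ezr*, a linker of microvilli to actin, 901.1 and 1203.5 (0.42). The microvillus cadherins *Cdhr5* (1349.1 and 1363.5, 0.02) and *Cdhr2* (660.8 and 656.0, −0.01) and the intestinal transcription factor *Cdx2* (716.6 and 692.9, −0.05) were level. The summed signal of the list was 29632.8 at 20% CR and between 20557.4 and 22161.4 on the other 4 arrays. In bulk tissue, more cells of a type and more RNA per cell cannot be told apart, which holds for every group described here.

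Markers of a position along the intestine gave mixed values. The 12 kept genes of the proximal intestine had a median of 0.01, with *Gata4*, which marks duodenum and jejunum, at 429.9 on the control and 442.7 at 20% CR (0.04). Of 9 genes of the distal intestine only 3 were kept, too few for the list to be counted, and all 3 were highest of the 5 arrays at 20% CR. They were *Amn* (56.0 and 88.8, 0.67), which is needed for vitamin B12 uptake, *Mep1a* (0.28) and *Bcl2l15* (1054.5 and 1086.8, 0.04), with a median of 0.28. The ileal genes *Fabp6* (8.3 and 8.6) and *Slc10a2* (10.7 and 10.9) were near 0 on both arrays. *Naaladl1*, named above as ileal, was brighter (70.9 and 174.9). Whether the pools differed in the sampled position along the intestine was not tested. Among the 15 highest ratios, chosen for their size, were *Muc3* and *Pdzk1*. *Muc3*, a membrane-bound mucin, had 603.8 on the control, 921.9, 870.8 and 884.4 at 5, 10 and 30% CR and 1502.5 at 20% CR (1.32), and *Pdzk1*, which anchors apical transporters, had 188.4, 313.6, 271.0, 425.7 and 197.0 (1.18). Secreted goblet cell products differed little, with *Muc2* at 2264.5 and 2014.9 (−0.17) and *Tff3* at 4271.7 and 4975.1 (0.22), and the goblet list had a median of 0.07 over 11 kept genes. Epithelial junction proteins and keratins had a median of 0.22 (0.15 centred), below the size of 0.25 at which a list was counted as higher or lower. Of these, 21 of 25 were positive, against 46.1% of all kept probe sets and 84.4% of those with mean signals of 1600 and above.

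**Figure D3:**
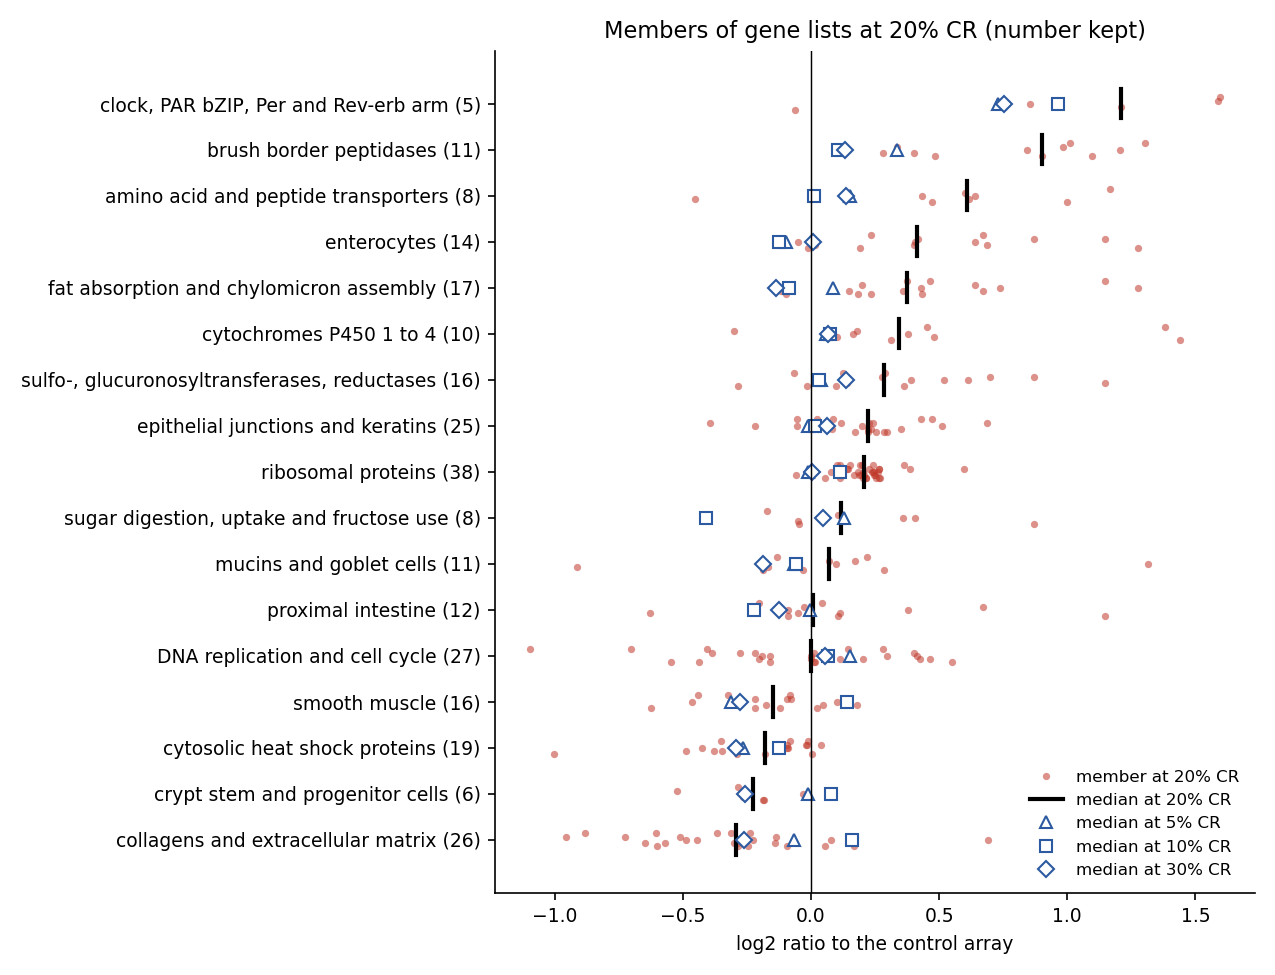
Log2 ratio to the control array for the kept members of 17 gene lists at 20% CR (red points, 1 a gene) with their median (black bar) and the medians at 5, 10 and 30% CR (open symbols), all against the same control array. The lists of peptidases, amino acid transporters, enterocytes and fat absorption have their highest median at 20% CR. So do those of the clock, cytochromes P450, sulfotransferases and related enzymes, junctions and keratins, ribosomal proteins, goblet cells and proximal intestine.

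Enzymes that clear drugs and other foreign compounds were counted as higher in 2 of the 3 classes listed, and glutathione transferases were not. Of 28 cytochromes P450 of families 1 to 4 and their reductase on the array 10 were kept. Of these, 9 were positive, as were 46.1% of all kept probe sets. The list median was 0.35 (0.06, 0.08 and 0.07 at 5, 10 and 30% CR). With members at any signal, floored at 10, it was 0.17, below the size of 0.25. *Cyp3a9* had 498.9 on the control, 768.3, 735.5 and 834.8 at 5, 10 and 30% CR and 1352.6 at 20% CR (2.71-fold, log2 ratio 1.44). *Cyp3a18* had 78.5, 131.0, 100.2, 204.3 and 223.7 (1.38), so here the 30% CR array was the highest. *Cyp3a* genes are similar in sequence, and a probe set may read more than 1 of them. A probe set whose annotation gives both *Cyp2b1* and *Cyp2b2*, near-identical genes it may not tell apart, had 89 on the control and 340.8 at 20% CR (1.94). *Por*, the electron donor of these enzymes, had 215.2 and 294.3 (0.45).

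Among sulfotransferases, glucuronosyltransferases, reductases and related enzymes, 13 of 16 kept members were positive, against 46.1% of all kept probe sets. Their median was 0.28 (0.23 centred, below the size of 0.25). *Ephx1*, a hydrolase of epoxides, had 165.9 on the control and 303.4 at 20% CR (0.87), and 237.8 to 244.1 at the other levels. *Ces2c*, a carboxylesterase, had 953.4 and 1368.0 (0.52), with 873.4 to 909.2 elsewhere. *Sult1a1*, *Ephx1* and *Akr1c14* are on the list because the study names them for this tissue, so they are no independent evidence of its direction. Glutathione transferases had a median of 0.03 over 15 kept genes, from *Gstp1* (2929.2 and 4163.7, 0.51) to *Gstm1* (124.4 and 77.1, −0.69).

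Of the clock genes driven by CLOCK and BMAL1, *Usp2*, *Per2*, *Nr1d2* and *Per1* were higher at 20% CR than in the control, while *Bhlhe40* was level. The intestinal clock runs on the activators CLOCK and BMAL1, which drive *Per*, Rev-erb and PAR bZIP genes that in turn repress or relay the rhythm. Of 12 genes of the latter arm on the array 5 were kept, with a median of 1.21 (0.73, 0.96 and 0.75 at 5, 10 and 30% CR). With a signal minimum of 100 *Bhlhe40* alone was left and the median was −0.061. *Usp2*, a rhythmic deubiquitinase, had 66.4 on the control, 110.1, 129.4 and 111.9 at 5, 10 and 30% CR and 200.8 at 20% CR (1.60), the highest by 0.63 on the log2 scale. *Per2* had 77.0, 203.6, 190.5, 231.6 and 204.6 (1.59), so all restricted pools were alike and the control stood apart. *Nr1d2*, a Rev-erb repressor, had 59.8, 186.3, 170.7, 138.4 and 113.0 (1.21) and *Per1* 64.6, 62.6, 110.4, 116.9 and 60.9 (0.86), so that *Per1* lay just below the control at 5 and 30% CR. *Bhlhe40* was level, with 141.8 and 135.9 (−0.06). *Clock* was the only kept gene of the activator arm and was lower. Its signal was 123.3 on the control, 91.6, 81.1 and 118.8 at 5, 10 and 30% CR and 86.3 at 20% CR (−0.51). The study names *Per2* and *Nr1d2*, so their direction is not independent evidence for the list. *Dbp* (21.9 and 97.8), *Nr1d1* (59.1 and 37.1), the other Rev-erb gene, *Bmal1* (102.5 and 41.9) and *Nfil3* (85.6 and 44.3) did not reach 50 on both arrays.

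The promoters of *Per2* and *Nr1d2* are shown because both are counted among the 15 highest genes and lie in the same clock loop, with the same build, length and layout as above. Capitals mark the D-box TTATGTAA, which PAR bZIP proteins such as DBP bind, in *Per2*, 192 bases before its start, and AGGTCA, the half-site read by Rev-erb and ROR proteins, in *Nr1d2*, 187 bases before its start.
Per2 promoter, chr9:99496994-99497243, minus strand: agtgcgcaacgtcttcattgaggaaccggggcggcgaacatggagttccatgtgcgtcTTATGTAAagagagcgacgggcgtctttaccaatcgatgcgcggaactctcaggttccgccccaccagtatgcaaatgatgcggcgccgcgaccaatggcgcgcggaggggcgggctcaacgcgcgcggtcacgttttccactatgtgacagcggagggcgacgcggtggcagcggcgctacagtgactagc
Nr1d2 promoter, chr15:9954784-9955033, plus strand: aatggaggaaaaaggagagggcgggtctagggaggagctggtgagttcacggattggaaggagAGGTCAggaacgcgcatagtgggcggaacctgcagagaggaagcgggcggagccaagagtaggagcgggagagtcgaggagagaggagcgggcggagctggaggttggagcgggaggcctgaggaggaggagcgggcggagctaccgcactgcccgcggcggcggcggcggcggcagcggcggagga
All 6 kept clock genes of both arms had a promoter of 300 bases in the table. The D-box words TTATGTAA or TTACGTAA were in 1 of the 6, against 1.01% of all promoters, AGGTCA in 2 of 6 (*Nr1d2* and *Usp2*), against 16.18%, and the E-box CACGTG in 1 of 6 (*Bhlhe40*), against 6.42%. No CRE (TGACGTCA, 1.83% of all) and no heat shock word (GAANNTTC, 8.59% of all) was found in these 6. Here too the matches describe the windows and are not shown to be sites.

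*Sgk1*, which encodes a kinase that raises sodium uptake and is induced by glucocorticoids, had the highest ratio of all singly named genes by its brightest probe set. Its signal was 137.7 on the control, 287.1, 285.9 and 307.4 at 5, 10 and 30% CR, and 521.8 at 20% CR (3.79-fold, log2 ratio 1.92). The restricted pools all lay above the control and the 20% CR pool lay a further 0.76 above the nearest of them. The glucocorticoid, FoxO and insulin response genes as a list were not higher, with 5 of 15 kept members positive, *Sgk1* and *Per1* among them, and a median of −0.15. *Tsc22d3* (219.1 and 218.4, −0.00) and *Fkbp5* (210.5 and 189.1, −0.15), both known glucocorticoid targets, were level or lower. *Eif4ebp3*, a repressor of cap-dependent translation, had 90.6 on the control and 242.7 at 20% CR (1.42), with 160.8 to 210.3 at the other levels.

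Genes of fluid and ion handling went both ways, with a median of 0.05 over 14 kept members. The peptides guanylin and uroguanylin, which act on the receptor *Gucy2c* to drive fluid secretion, were higher: *Guca2b* had 1539.3 on the control, 1632.9, 1765.8 and 1738.7 at 5, 10 and 30% CR and 2710.2 at 20% CR (0.82), and *Guca2a* 1058.2 and 1547.7 (0.55). *Gucy2c* itself had 290.0 and 325.2 (0.17). The membrane carbonic anhydrase *Car4* had 70.3 and 136.5 (0.96) and the cytosolic *Car2* 225.8 and 113.3 (−0.99, and −0.78 at a second probe set). *Slc9a3*, the apical sodium-proton exchanger, had 317.0 and 213.9 (−0.57), and *Clca4*, which modulates chloride channels, 871.0 and 462.2 (−0.91). All 4 restricted pools lay below the control for *Car2*, *Slc9a3* and *Clca4*.

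Collagens and other matrix genes were the one list counted as lower, a call lost under most rescalings. Of 29 on the array 26 were kept, 21 with a negative and 5 with a positive log2 ratio, and the median was −0.29 (−0.06, 0.16 and −0.26 at 5, 10 and 30% CR). It was −0.247 after centring, −0.246 after quantile normalization and −0.237 after median centring, short of the size of 0.25 in each, and −0.278 with an added constant. Of the 26, 8 were lower by at least 0.5, against 4.55% of all kept probe sets, and 14 were lowest of the 5 arrays at 20% CR, against 27% of all. *Col5a1* had 146.6 on the control, 109.7, 130.6 and 124.1 at 5, 10 and 30% CR and 75.7 at 20% CR (−0.95). *Pdgfra*, the growth factor receptor of the fibroblasts beneath the epithelium, had 447.7, 394.4, 455.2, 243.3 and 322.7 (−0.88), and the collagenase *Mmp2* 237.6, 185.8, 232.3, 143.6 and 190.6 (−0.73). For these 3 the gap of the 20% CR array to the nearest other array was −0.54, −0.41 and −0.37.

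The fibrillar collagens *Col3a1* (1467.8 and 969.3, −0.60), *Col1a2* (321.5 and 211.7, −0.60, and −0.32 at a second probe set) and *Col1a1* (215.6 and 151.5, −0.51, and −0.60 at a second probe set) were about as low or lower at 30% CR, with signals of 970.9, 173.2 and 156.6. *Mgp*, an inhibitor of calcification, was the exception, with 342.2 on the control and 552.9 at 20% CR (0.69), and *Dcn* and *Vim*, which fibroblasts also make, had ratios of 0.17 each. The summed signal of the list was 7497.3 at 20% CR and 8357.3 to 10155.8 on the other arrays. Smooth muscle genes had a median of −0.15 over 16 kept members (−0.24 centred). Of the 16, 12 were negative, as were 3896 of all 7247 kept probe sets. *Des* was lowest (1384.1 and 897.4, −0.63) and *Actg2* highest (2698.5 and 3056.5, 0.18). The summed signal of the smooth muscle list, 18494.6, lay within the range of 16432.9 to 22129.4 of the other arrays.

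**Figure D4:**
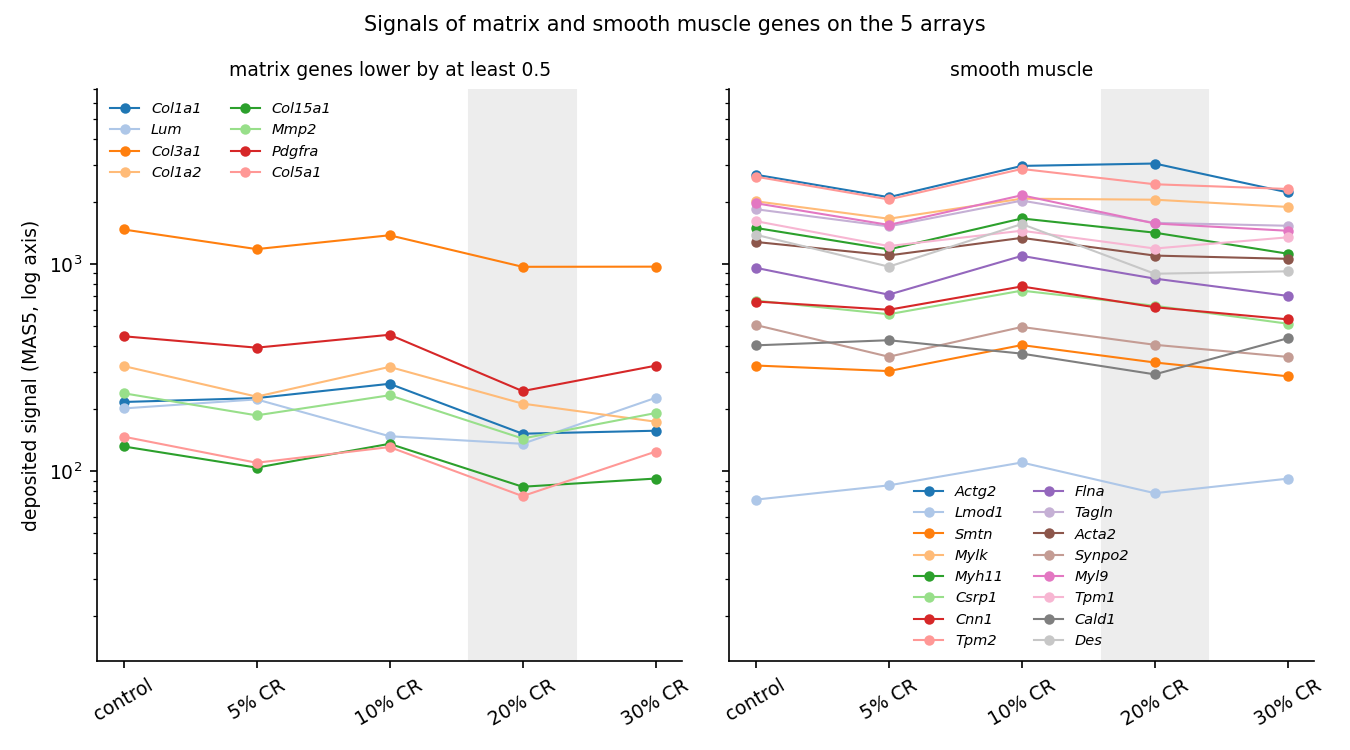
Deposited signal (log axis) of the 8 matrix genes lower by at least 0.5 at 20% CR (left) and the 16 kept smooth muscle genes (right) on the 5 arrays, 1 line a gene and 1 point an array, with the 20% CR array shaded. The matrix genes are low at 20% CR, and several are as low at 30% CR, while most smooth muscle genes are lowest on the 5 or 30% CR array.

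Markers of crypt stem and progenitor cells were negative in all 6 kept members, as were 3896 of all 7247 kept probe sets. Their median was −0.23, and −0.01, 0.08 and −0.26 at 5, 10 and 30% CR. They ranged from *Cdca7* (162.3 and 158.9, −0.03) and *Prom1* (336.2 and 276.1, −0.28) to *Myc* (107.9 and 75.1, −0.52). *Myc* was lower still at 5 and 30% CR (54.3 and 62.4). The stem cell marker *Lgr5* was near 0 on both arrays (10.0 and 16.6). Cell cycle genes went both ways: the median was 0.00 over 27 kept, and *Mki67* had 179.7 and 237.7 (0.40), *Mcm6* 138.5 and 191.0 (0.46) and *Mcm3* 84.9 and 52.2 (−0.70). Markers of lymphocytes (median 0.24, 7 kept of 19), macrophages and mast cells (0.03, 13 of 21), endothelium (0.06, 6 of 10), neurons and glia (−0.09, 5 of 15), Paneth cells (0.13, 6 of 14) and hormone cells (0.03, 12 of 22) stayed under 0.25. Summed signals at 20% CR and in the control were 8355.9 and 7305.9 for lymphocytes, 9238.0 and 7906.0 for macrophages and mast cells, and 862.8 and 869.0 for endothelium. *Ctss*, a lysosomal protease of antigen-presenting cells, stood out among the macrophage genes, with 1477.4 and 2435.3 (0.72).

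Pancreatic enzymes read higher on the control array than on the others. *Prss1* (trypsinogen) had 174.3 on the control, 71.2, 2.4 and 18.5 at 5, 10 and 30% CR and 24.9 at 20% CR, *Cela2a* had 119.2 and 15, and *Ctrb1* 74.0 and 1.4. The summed signal of 13 such genes was 1039.1 on the control and 298.8 to 422.8 on the 4 restricted arrays. Only *Cela1*, with 214.5 and 207.0 (−0.05), passed the signal minimum, so none of the ratios counted above comes from the other 12, and their part in other results was not tested. Adipose and blood markers were few, with *Fabp4* at 121.0 and 99.9 (−0.28) and *Hbb* at 513.5 and 446.2 (−0.20).

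The lowest single genes were of mixed function. *Mcl1*, which blocks apoptosis, had 662.5 on the control, 644.2, 493.5 and 726.0 at 5, 10 and 30% CR and 249.3 at 20% CR (−1.41), but its second probe set had 159.9 on the control and 185.1 at 20% CR (0.21), so the 2 probe sets disagree in sign. *Cdkn1b* (p27), an inhibitor of cyclin-dependent kinases, had 557.8, 719.9, 480.3, 260.9 and 721.3 (−1.10). *Smim19*, a small membrane protein, had 119.8 and 50.7 (−1.24), just above the signal minimum of 50.

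*Rtn4ip1*, a mitochondrial oxidoreductase, had 141.0 and 63.8 (−1.14), the mitochondrial phosphatase *Pptc7* 164.2 and 81.7 (−1.01) and the mitochondrial elongation factor *Gfm1* 359.3 and 179.2 (−1.0). *Gfm1* was as low at 5% CR (177.8). The others of the 15 were *Zfp330* (380.3 and 158.8, −1.26), *Zbp1*, a sensor of nucleic acids (121.3 and 58.1, −1.06), *Pdpn*, which marks lymphatic endothelium and some fibroblasts (131.0 and 64.4, −1.02), the transcription factor *Foxp1* (104.3 and 51.4, −1.02), the adhesion protein *Mcam* (100.9 and 50, −1.01), *Marf1*, *Pdcd2*, *Car2* and *Hspa1a*. *Hspa1a*, an inducible member of the Hsp70 heat shock proteins, which has the near-identical copy *Hspa1b*, had 168.4 on the control, 84.0 at 20% CR (−1.0) and 74.7 to 88.0 at the other levels, so the control alone was high. Cytosolic heat shock proteins as a list were negative in 17 of 19 kept members, with a median of −0.18 (−0.27, −0.12 and −0.29 at 5, 10 and 30% CR). Over all kept probe sets, 3896 of 7247 were negative. Of the 19, 1 was lower by at least 0.5 (4.55% of all) and 6 were lowest of the 5 arrays at 20% CR (27% of all).

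On the 20% CR array more probe sets lay beyond all other arrays than on any other. With a gap of at least 0.5 to the nearest of the other 4, 30 were highest and 52 lowest at 20% CR, against 23 and 27 on the control, 1 and 9 at 5%, 12 and 29 at 10% and 15 and 27 at 30% CR. These counts use probe sets bright on the 20% CR and control arrays only. By distance from the control the order was another. Of the same probe sets, 547 differed from the control by at least 0.5 at 20% CR, against 589, 496 and 849 at 5, 10 and 30% CR. The largest gaps above belonged to *Ace*, *Samhd1*, *Sgk1*, *Apoc3*, *Exoc7*, *Ms4a8*, *Muc3* and *Tmem86a*. *Samhd1*, which breaks down deoxynucleotide triphosphates, had 171.9 on the control, 187.8 to 204.8 at 5, 10 and 30% CR and 349.3 at 20% CR (1.02). *Ms4a8* had 890.8 on the control, 768.8 to 936.7 at these levels and 1552.4 at 20% CR (0.80).

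The largest gaps below belonged to *Smim19*, *Mcl1*, *Phf3*, *Cdkn1b*, *Ckap5*, *Ier2*, *Lyrm4* and *Ppp3r1*. *Ier2*, an immediate early gene, had 239.6 on the control, 217.7 to 233.6 elsewhere and 125.1 at 20% CR (−0.94). *Ckap5*, which promotes microtubule growth, had 140.1, 129.5 to 168.1 and 73.0 (−0.94), *Lyrm4*, of iron-sulfur cluster assembly, 127.1, 108.8 to 128.1 and 65.8 (−0.95), and *Ppp3r1*, the regulatory subunit of calcineurin, 260.1, 252.3 to 292.4 and 153.0 (−0.77). Unlike the absorptive genes, none of these 8 belongs to a list counted as higher or lower.

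**Figure D5:**
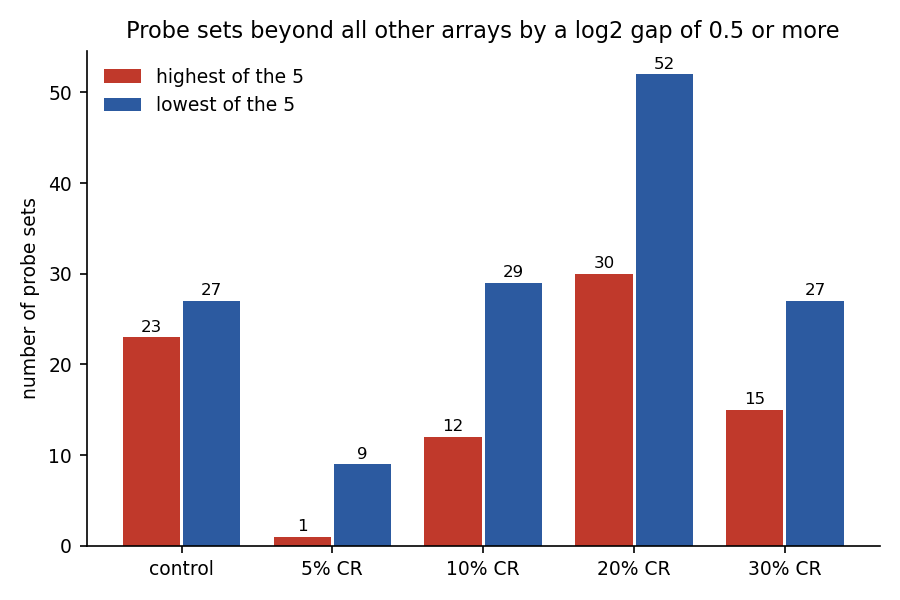
Number of the 7247 kept probe sets for which an array was the highest (red) or lowest (blue) of the 5 by a log2 gap of at least 0.5 to the nearest other array. The 20% CR array has the most of both, 30 and 52.

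Lists of energy metabolism and protein synthesis had medians under 0.25 in size. Ribosomal proteins were positive in 37 of 38 kept members with a median of 0.21, which became 0.03 after centring. The respiratory chain and ATP synthase had 0.10 and −0.01 over 62. The centring curve was fitted to all kept probe sets, these genes among them, so their centred medians are not independent of it. Fatty acid oxidation had a median of 0.20 (0.17 centred) over 22 kept genes, with *Acadm*, which oxidizes medium-chain fatty acids, at 613.5 on the control and 1007.5 at 20% CR (0.72) and *Cpt1a*, the entry step, at 436.5 and 593.4 (0.44). Fatty acid synthesis was negative in 8 of 12, with a median of −0.19, and *Fasn* had 244.9 and 172.8 (−0.50, and 0.11 at a second probe set). Cholesterol synthesis had a median of 0.08, with *Cyp51* at 675.1 and 621.7 (−0.12, and 0.19 at a second probe set) and *Insig1*, which holds back sterol synthesis, at 221.0 and 312.7 (0.50). In translation, 27 of 41 factors and tRNA synthetases were negative with a median of −0.07. The lowest was *Tars1*, the threonine tRNA synthetase, at 425.5 and 216.9 (−0.97). Over all kept probe sets, 3896 of 7247 were negative. *Psat1*, of serine synthesis, had 131.3 and 68.0 (−0.95).

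Of 54 gene lists with 997 genes on the array, 766 genes were kept and 46 lists had at least 5 kept members. By the size of 0.25, 7 were counted as higher and 1 as lower. Lists with fewer members were only described: of 5 sterol transporters *Npc2* alone was kept (762.7 and 723.3, −0.08), while *Abcg5* had 35.5 on the control and 92.4 at 20% CR and *Abcg1* 23.2 and 68.1. Of the other genes the study names for the small intestine, *Nmu*, a gut neuropeptide, had 228.4 and 180.7 (−0.34), *Nampt*, of NAD salvage, 81.6 and 97.5 (0.26), *Gsta1* 56.1 and 78.6 (0.49) and *Glul*, which makes glutamine, 204.2 and 222.9 (0.13), with 0.39 and −0.17 at its other probe sets. *Cd36*, *Akp3*, *Clca4*, *Hspa1a* and *Cyp51*, described with their lists above, are also named by the study, so they are no independent evidence of a list's direction. The study prints log ratios computed by the MAS5 software, a measure other than the ratios of deposited signals used here. Its 20% CR value is lower for *Nmu* and smaller in size for *Akp3* than the ratio given here.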

How the data were processed

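RNA of the small intestine was pooled from 5 rats a group and hybridized to 1 array each. The authors computed the deposited signal intensity of each probe set with the MAS5 algorithm of the GeneChip Operating Software. The scaling target was not given in the sources used here, but the trimmed mean was 132 on each array. Signals were used as deposited, with no added constant. Columns of no sample numbered 0.

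Probe sets were named from the platform annotation, which gave 12783 of 15866 a single name, 312 several and 2771 none that could be used. A gene was read from its brightest probe set. Log2 ratios were kept where both signals reached 50. Of 1224 genes in 54 lists, 997 were on the array. A list with at least 5 kept members was counted as higher or lower where its median lay at least 0.25 from 0. The members and lists were chosen with earlier results of these data known. The named genes were the 15 highest and 15 lowest ratios, the 8 largest gaps to the other 4 arrays in each direction, up to 4 members of each list, members of the clock, alkaline phosphatase, sterol and cell type lists, and genes the study names for this tissue. The other peptidases and amino acid transporters were named after their values had been seen.

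Promoters were RefSeq sequences on GRCr8, searched for fixed words on both strands. Calculations were run in Python 3.11.15 with numpy 2.4.6, pandas 2.3.3, statsmodels 0.14.6 and matplotlib 3.10.9, and were tested on simulated data. Alternatives changed the scaling, the signal minimum, the reference array and the size counted. With 1 array a group, precision between animals is unknown and no test was made.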

Additional observations from a re-analysis of the deposited data

How the results depend on the processing

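No paired analysis was possible because each group has 1 array. The medians of the 8 lists counted as higher or lower kept their direction under quantile normalization, median centring, centring on signal and the added constant of 13.1, and the 41 named genes compared moved by less than 0.22, the median difference between probe sets of a gene. Short of the size of 0.25 were the median of matrix genes after quantile normalization (−0.246), median centring (−0.237) and centring on signal (−0.247), and that of sulfotransferases and related enzymes after quantile normalization (0.22) and centring on signal (0.23). With members at any signal the medians of cytochromes P450 (0.17) and sulfotransferases (0.21) did too. Counts at a log2 ratio of at least 1 moved more. The lower count was 10 after quantile normalization, median centring or centring on signal, and 7 with the added constant. With a minimum of 100 on both arrays, 11 were higher and 5 lower by 1, and 123 and 124 by 0.5. With 50 on 1 or both arrays the counts were 57 and 85, and 379 and 574. With a filter on mean signal they were 40 and 50 at 1. At sizes of 1.5 and 0.75, 5 and 1, and 58 and 69, were counted.

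Against the mean of the 5, 10 and 30% CR arrays, 5 probe sets were higher and 9 lower by 1. The peptidase median was 0.55 and the clock median 0.27. Most of the named genes compared depended on this reference. Of these genes, 26 moved by more than the median difference between probe sets of a gene (0.22), and 12 by less. A further 3, *Nr1d2* (−0.15), *Sult1a1* (−0.21) and *Hspa1a* (0.018), changed sign. Against the mean of the other 4 arrays, 2 probe sets were higher and 7 lower by 1. The peptidase and clock medians were then 0.66 and 0.56, and 26 of the named genes moved by more than that difference and 15 by less. The clock median was −0.061 with the minimum of 100, which left *Bhlhe40* alone. Signals near 50 carry more relative error, and replicate error could not be measured.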

Other observations

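Of the 778 probe sets that reached a signal of 50 on only 1 of the control and 20% CR arrays, 34 lay at least 1 above and 67 at least 1 below the control on the log2 scale, with signals floored at 10. Among the genes outside the ratios, *Pck1*, of gluconeogenesis, had 27.1 on the control and 76.0 at 20% CR, and *Cyp4b1* had 42.6 and 127.2. *Nr1d1*, a Rev-erb repressor like *Nr1d2*, had 59.1 and 37.1.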
